A study of Homo sapiens with 36 samples.

Results

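The genes described here are those of DNA replication and S phase: the origin, helicase, polymerase and replication-fork genes of a fixed list of 55 symbols. Of these, 54 were found in the table of 57820 human genes, each by 1 Ensembl gene identifier. UHRF1 was not matched to an identifier and is not analysed here. The comparison of interest is how far these transcripts dropped when A2780 ovarian cancer cells were deprived of serine and glycine, and how far they dropped under carboplatin.

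RNA-seq was performed on 36 libraries of A2780 cells, an established human ovarian cancer cell line, in 12 conditions with 3 libraries each. The parental line (wt) is sensitive to platinum, and its isogenic counterpart (cis) was made resistant by chronic exposure to cisplatin. The last line (cis SSP) grew out of cis cells kept without serine and glycine and had regained serine synthesis activity. Each line was untreated, treated with carboplatin (carbo), kept in medium without serine and glycine (-SG), or given both (-SG carbo).

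The -SG medium was a home-made RPMI with dialysed serum, and the labels do not say which medium the untreated cells had. The cis SSP cells had arisen without serine and glycine, so for them -SG was no new condition, as it was for wt and cis cells. The study's methods on RNA-seq name no time of exposure to -SG or carbo. The labels print the carboplatin dose as 6 M. The methods name 6 µM for other assays of these cells and no dose for RNA-seq. In the study's legends the libraries within a condition are described as technical replicates. A p-value below therefore measures only the spread between libraries. Each line is also a single cell population, so a difference between lines is a difference between these 3 populations.

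Counts on genes summed to between 13074937 and 20441582 per library. The first library of untreated cis SSP cells and the second of cis SSP -SG cells stood apart from the others. For each, the deviation from the mean of the other libraries of its condition correlated with log transcript length. The r was -0.38 and -0.38 across genes, which are not independent replicates. The standard deviation (SD) of these deviations was 0.601 and 0.618 on the log2 scale. Replicates 2 and 3 of cis -SG carbo cells had 17.9% and 14.9% of their counts outside features, against at most 9.31% elsewhere. The comparisons that use these 4 libraries are given with and without them. The second wt -SG carbo library also had a trend with length (r of -0.325), with an SD of 0.294. It was kept in the main comparisons of wt -SG carbo cells and left out only where 1 library at a time was left out. Of 5 epithelial markers, EPCAM and CDH1 did not exceed 2.31 and 0.324 CPM (counts scaled for library size) in any library, KRT8 and KRT19 reached 6.56 and 7.92 CPM, and KRT18 was at 0.345 to 42.2 CPM. PAX8, a marker of ovarian carcinoma, did not exceed 0.632 CPM, and the leukocyte marker CD3E was at 0 in all libraries. The mesenchymal genes VIM and CDH2 were at 1523 to 4747 and 9.69 to 1396 CPM. CDH2 averaged 208, 12.5 and 1060 CPM in untreated wt, cis and cis SSP cells. The fibroblast genes COL1A1 and COL1A2 were at 1.61 to 1014 and 0 to 779 CPM, highest in wt carbo and wt -SG carbo libraries. In the same untreated cells, the fibroblast gene DCN averaged 0.49, 0.629 and 24.7 CPM, and LUM 1.02, 0.616 and 4.9 CPM. The part of these genes in the changes under carbo was not tested.

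Before S phase, the origin recognition complex, CDC6 and CDT1 load the MCM2 to MCM7 ring onto DNA. In S phase, the kinase pair CDC7 and DBF4, cyclin E and factors such as CDC45 and the GINS complex turn the ring into an active helicase. Primase and the polymerases then copy both strands, held by the clamp PCNA and its loader RFC, while FEN1, RNase H2 and DNA ligase join the lagging strand. Many of these genes are transcribed under E2F factors as cells leave G1, so their transcripts are commonly read as a sign of cells entering S phase. In bulk RNA, fewer cells in S phase and less of each transcript per cell cannot be told apart.

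The promoters of 46 of the 54 genes were found in a RefSeq table of windows from 250 bases before to 50 bases after the gene start (GRCh38.p14). E2F-type words, searched on both strands, were the 4 words of 8 letters that start with TTT, go on with 2 letters that are each C or G, and end in CGC. At least 1 such word lay in 19 of the 46 windows (41.3%), against 3.33% of all 27305 windows and 4.98% of the 11575 windows of other genes tested in these cells. The word CCAAT lay in 26 (56.5%, against 35.7% of all windows and 36.3% of those of other genes tested) and TTTGAA, the CHR word, in 1 (2.17%, against 15.4% and 10.0%). The sequences below show such words in 2 MCM ring genes with large drops under carboplatin in wt cells, in MCM7 and GINS2, and in PCNA, which moved the other way. Each is a stretch of 80 bases, written 5′ to 3′ on the strand of the gene with the E2F-type words in capitals, and all 5 genes lie on the minus strand. They are RefSeq sequences at chr6:52284889-52284968 (MCM3), chr2:135876502-135876581 (MCM6), chr7:100101398-100101477 (MCM7), chr16:85688958-85689037 (GINS2) and chr20:5126654-5126733 (PCNA).
MCM3: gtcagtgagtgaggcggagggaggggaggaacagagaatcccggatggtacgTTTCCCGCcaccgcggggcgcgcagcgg
MCM6: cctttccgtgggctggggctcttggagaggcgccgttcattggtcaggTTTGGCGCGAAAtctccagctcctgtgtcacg
MCM7: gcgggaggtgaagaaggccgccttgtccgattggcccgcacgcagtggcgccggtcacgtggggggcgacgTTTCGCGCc
GINS2: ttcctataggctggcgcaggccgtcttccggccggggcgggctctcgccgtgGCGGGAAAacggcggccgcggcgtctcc
PCNA: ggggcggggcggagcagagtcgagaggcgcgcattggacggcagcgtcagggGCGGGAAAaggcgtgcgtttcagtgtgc
In MCM6 2 words on opposite strands overlap, and in GINS2 and PCNA the word reads on the other strand. The genes with and without an E2F-type word had close median log2 changes under carbo in wt cells (-1.13 over 19 genes and -1.18 over 27). In cis -SG cells the median was -0.40 with and -0.73 without a word. A match is a description of the letters in the window, and no test was made of it.

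The summed level of the 54 genes showed which treatment moved them in which line. In wt cells it was 6205 ± 41.6 CPM (mean ± SD, n = 3 libraries, as throughout) when untreated, 3243 ± 21.3 CPM under carbo and 5017 ± 34.7 CPM without serine and glycine, so 52.3% of the untreated level was left under carbo and 80.8% under deprivation. In cis cells the order was the other way round: 6240 ± 84.6 CPM untreated, 5751 ± 30.8 CPM (92.2%) under carbo and 4393 ± 20.5 CPM (70.4%) under deprivation. In cis SSP cells it was 6472 ± 351 CPM untreated, 5852 ± 54 CPM (90.4%) under carbo and 6218 ± 326 CPM (96.1%) under deprivation. With both treatments 51.1% was left in wt, 61.5% in cis and 93.3% in cis SSP cells. Within wt and within cis cells the libraries of the untreated, carbo and -SG conditions did not overlap. The wide spread of untreated and -SG cis SSP cells came from the 2 libraries that stood apart, at 6877 and 6594 CPM. Without these, untreated cis SSP cells were at 6269 CPM and -SG cells at 6030 CPM (2 libraries each), so 93.3% of the untreated level was left under carbo, 96.2% under deprivation and 96.3% under both. The cis -SG carbo library with few counts outside features was at 3930 CPM, 63.0% of the untreated cis level.

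**Figure D1:**
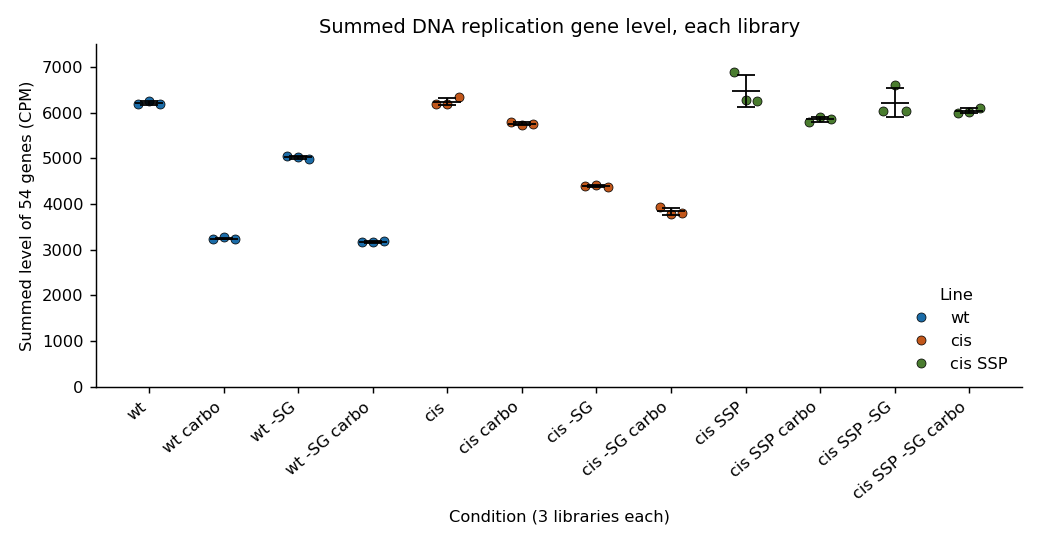
Summed level of the 54 genes (CPM, vertical axis) in each of the 36 libraries by condition. Points are libraries and bars are the mean and SD of 3 libraries, and the lowest sums are those of wt carbo (3243 CPM on average) and wt -SG carbo cells (3170 CPM), while the lowest of cis cells are the -SG carbo libraries (3837 CPM).

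Most genes had their lowest level of the 12 conditions in treated wt cells: 23 in wt -SG carbo, 14 in wt carbo and 3 in wt -SG cells. Another 11 were lowest in cis -SG carbo, 2 in cis -SG and 1 in cis SSP -SG cells. Over the 12 condition means, FAM111B, ORC5, ORC4, PCNA and CCNE2 followed the mean pattern of the group least (Pearson r of -0.15, 0.08, 0.17, 0.21 and 0.37, as a description over conditions that share libraries' depth and scaling). Per kb of exon, PCNA was the most abundant member in untreated wt cells at 164 ± 5.56 CPM per kb, followed by MCM3 at 93.3 ± 2.00 and MCM7 at 83.2 ± 1.37, and CCNE2 was the least abundant at 1.05 CPM per kb.

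**Figure D2:**
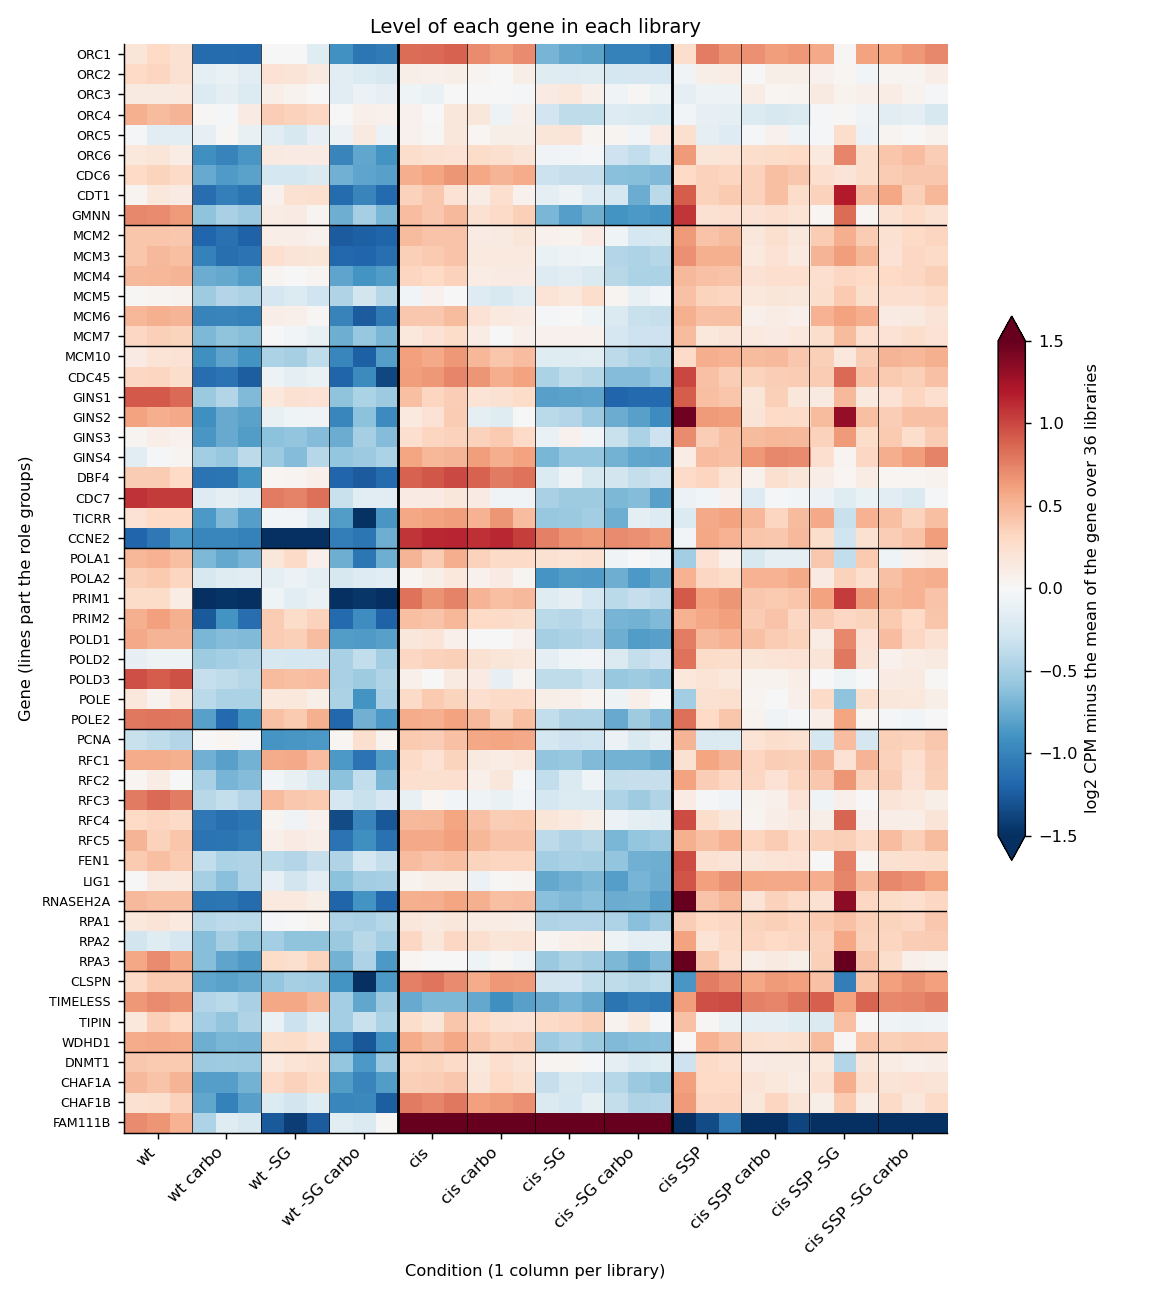
Level of each gene in each library, as log2 CPM minus the mean of that gene over the 36 libraries (colour, from blue for low to red for high, limited at 1.5 in each direction). Rows are genes parted by role and columns are libraries, and the blue blocks show wt carbo and wt -SG carbo cells across nearly all genes, and cis -SG and cis -SG carbo cells across many of them.

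In wt cells, 51 of the 54 genes fell under carbo and 1 rose, in the quasi-likelihood test of edgeR (called at an adjusted p under 0.05 after Benjamini-Hochberg correction over all genes tested). The median change was -1.13 on the log2 scale, and 33 genes fell by at least 1. Of all genes tested, 39.0% were lower and 38.9% higher in that comparison, with a median change over all genes of -0.00. The largest drops were those of the primase subunits PRIM1 (-1.75 ± 0.0692, SE) and PRIM2 (-1.65 ± 0.0605) and of POLE2, a subunit of the leading-strand polymerase (-1.74 ± 0.0685). PCNA rose (0.39 ± 0.022). ORC5 and the cyclin gene CCNE2 were not called, each with a change of 0.04.

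Under deprivation, 48 of the 54 genes fell in wt cells and 6 were not called, with a median change of -0.33 (edgeR; 25.1% of all genes lower and 24.1% higher). FAM111B, which codes for a protease and rises in S phase, fell most (-1.94 ± 0.127), followed by the checkpoint adaptor CLSPN (-0.89 ± 0.0459) and CCNE2 (-0.89 ± 0.155). The genes not called were ORC3, ORC5, ORC6, CDT1, POLE and RFC1, with changes between -0.08 and 0.07. The only drop of at least 1 was that of FAM111B. A single edgeR fit over the 36 libraries called 35 of the 48, and among the 13 calls it did not make were those of ORC1, TICRR, POLA1, RNASEH2A, RPA3, TIMELESS and DNMT1.

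The untreated libraries are shared by both of these comparisons, so the drops were compared between -SG and carbo libraries directly. In wt cells 46 of the 54 genes were higher without serine and glycine than under carbo, 3 were lower and 5 were not called (edgeR; 38.2% of all genes higher and 37.6% lower). The median difference was 0.73 on the log2 scale. PRIM1 (1.42 ± 0.0732), PRIM2 (1.42 ± 0.0728) and POLE2 (1.39 ± 0.0809) were furthest above their carbo level. FAM111B (-1.02 ± 0.152), CCNE2 (-0.94 ± 0.147) and PCNA (-0.88 ± 0.0269) were the 3 genes that were lower under deprivation than under carbo. ORC5, GINS4, POLA2, FEN1 and RPA2 were not called, with differences between -0.11 and 0.07.

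In cis cells, 27 of the 54 genes fell under carbo, 1 rose and 26 were not called, with a median change of -0.12 (edgeR; 10.8% of all genes lower and 9.27% higher). The largest drops were those of GINS2 (-0.35 ± 0.0607), FAM111B (-0.29 ± 0.0604) and MCM2 (-0.29 ± 0.0282), and PCNA rose (0.19 ± 0.026). All 6 genes of the MCM ring were among those that fell. The number of calls depended on the test: DESeq2 called 14 of the 28 (MCM2 to MCM7, GINS2, FAM111B, PRIM1, WDHD1, POLD2, RFC1 and DNMT1 lower, PCNA higher), a single edgeR fit over the 36 libraries called MCM2 to MCM6 alone, and 17 genes were called without replicate 3 of cis carbo.

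Under deprivation 49 of the 54 genes fell in cis cells, 2 rose and 3 were not called, with a median change of -0.50 (edgeR; 37.4% of all genes lower and 37.6% higher). ORC1, the large subunit of the origin recognition complex, fell most (-1.56 ± 0.0506). Next came GMNN, the inhibitor of CDT1 (-1.14 ± 0.0575), and RNASEH2A, the catalytic subunit of RNase H2 (-1.13 ± 0.0463). MCM5 (0.26 ± 0.0329) and ORC3 (0.23 ± 0.0419) rose. ORC5, TIMELESS and TIPIN were not called, with changes of 0.12, 0.02 and 0.09. The single fit over 36 libraries made 47 of the 51 calls, and not those of MCM7, POLA1, POLE and RPA3.

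Compared directly, 44 of the 54 genes were lower in cis -SG than in cis carbo cells and 5 were higher, with a median difference of -0.39 (edgeR; 36.6% of all genes lower and 36.7% higher). ORC1 (-1.39 ± 0.0501), GINS4 (-1.15 ± 0.0548) and RNASEH2A (-1.06 ± 0.0449) differed most. The 5 genes that were higher under deprivation were MCM5 (0.46), ORC3 (0.19), TIMELESS (0.15), ORC5 (0.14) and MCM7 (0.07). The single fit over 36 libraries did not make 11 of the 49 calls. Among the higher genes these were TIMELESS, ORC5 and MCM7. Among the lower ones they were CDT1, DNMT1, GINS2, POLD2, POLE, RFC4, RPA2 and RPA3. In the main test MCM2, POLA1, RFC3, TIPIN and FAM111B were not called. Of these, MCM2 had the difference with the smallest standard error, -0.01 ± 0.0277, with a drop of close size under each treatment (-0.29 under carbo and -0.31 under deprivation).

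**Figure D3:**
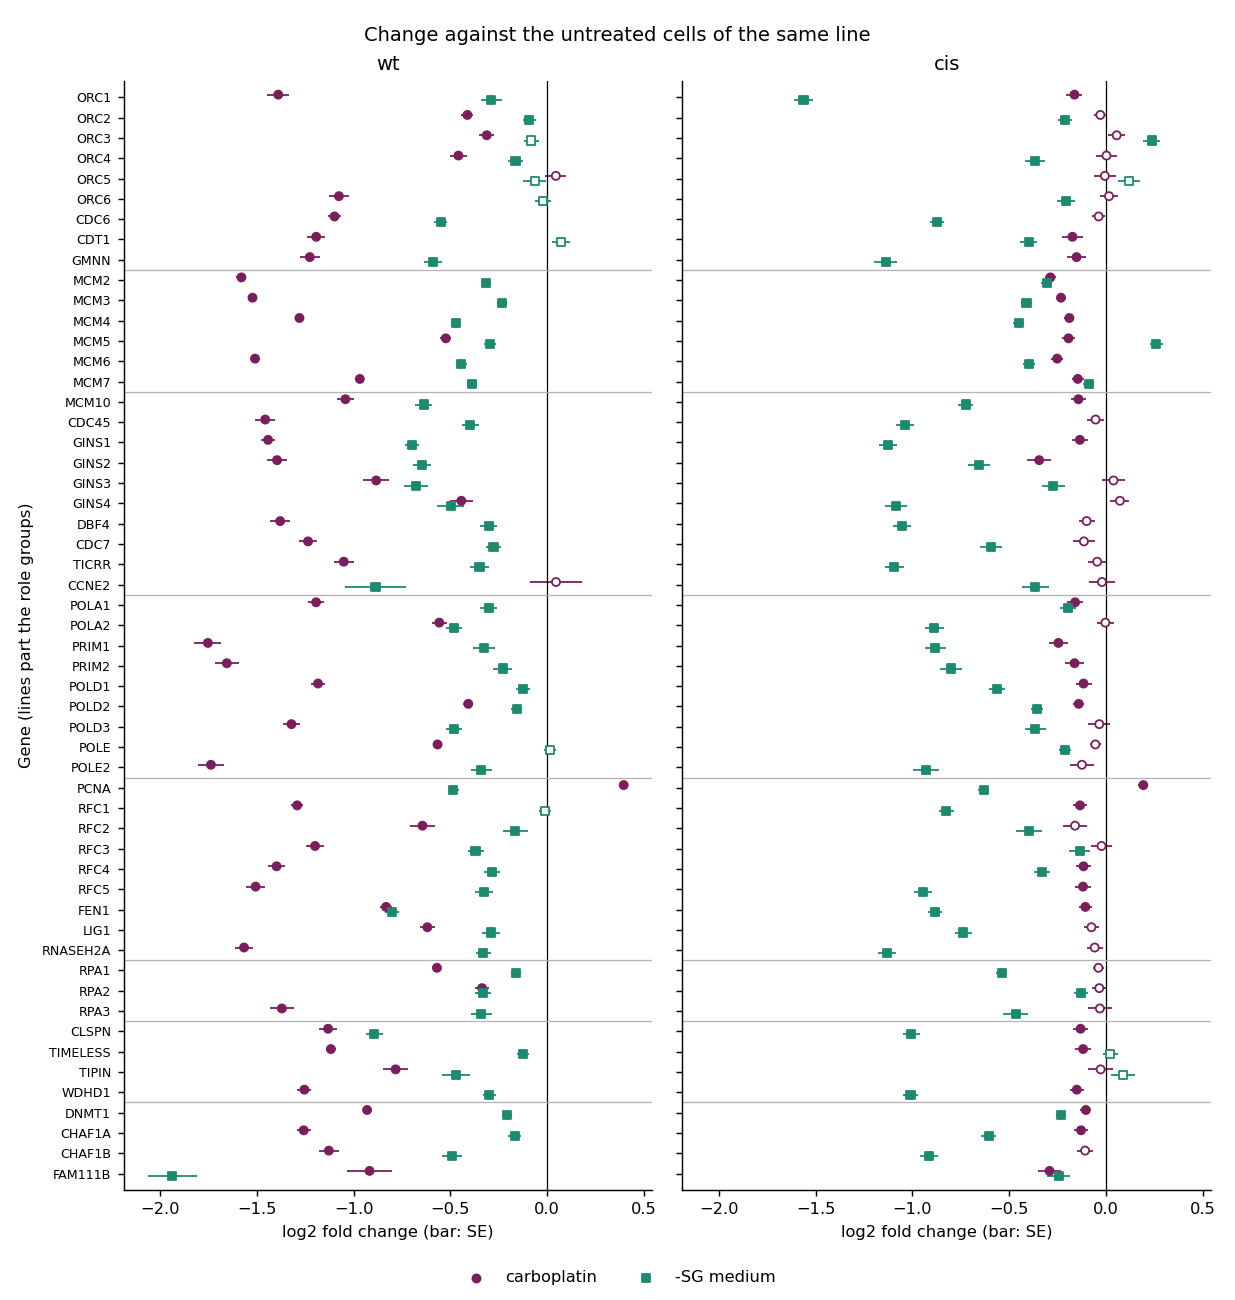
Log2 fold change of each of the 54 genes against untreated cells of the same line, in wt (left) and cis cells (right). Circles are carbo, squares are -SG, bars are SE, open symbols are genes not called by edgeR, and grey lines part the role groups: in wt cells the circles lie left of the squares for most genes (median -1.13 against -0.33), and in cis cells the squares lie further left (median -0.50 against -0.12).

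The responses of the lines were compared by an interaction term in an edgeR fit of the 4 conditions. For carbo, 51 of the 54 genes had a higher log2 change in cis than in wt cells and 1, PCNA, a lower one (30.3% and 27.2% of all genes), with a median difference of 1.03. The calls of PCNA, and of POLD2 and POLE among the 51, were not made by the single fit over 36 libraries. CCNE2 and ORC5 were not called. For deprivation, 30 genes had a lower log2 change in cis than in wt cells and 11 a higher one, with a median difference of -0.18 (26.9% and 27.1% of all genes). The most negative differences were those of ORC1 (-1.26 ± 0.0717), the clamp loader subunit RFC1 (-0.80 ± 0.0489) and RNASEH2A (-0.78 ± 0.0582). The 11 genes with a higher log2 change in cis cells included FAM111B (1.71 ± 0.136), TIPIN (0.57 ± 0.0951) and MCM5 (0.57 ± 0.0457).

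Where levels of 3 conditions follow each other below, they are in the order untreated, carbo and -SG. Counts by role group stand beside these shares of all genes: 39.0% lower and 38.9% higher for wt carbo, and 25.1% and 24.1% for wt -SG. For cis carbo the shares were 10.8% and 9.27%, and for cis -SG they were 37.4% and 37.6%. Among the 9 genes of origin recognition and licensing, 8 fell under carbo in wt cells (median -1.08) and 5 under deprivation (median -0.09). In cis cells 3 fell under carbo (median -0.03) and 7 under deprivation, with 1, ORC3, rising (median -0.37). ORC1 (ENSG00000085840, minus strand, chr1:52838501-52870095 in GRCh37) was at 42.2, 45.8 and 43.7 CPM in untreated wt cells, at 16.8, 16.7 and 16.6 CPM under carbo and at 37.2, 37.1 and 33 CPM under deprivation. In cis cells it was at 66.7, 67.4 and 68.6 CPM untreated, 60.8, 57.9 and 60.7 CPM under carbo and 22.9, 21.7 and 21.3 CPM under deprivation. The conditions did not overlap within either line, with carbo lowest in wt and deprivation lowest in cis cells. The log2 change was -1.39 ± 0.0573 and -0.29 ± 0.0527 in wt cells and -0.16 ± 0.0413 and -1.56 ± 0.0506 in cis cells, under carbo and deprivation in turn (edgeR adjusted p = 5.39e-97, 0.000119, 0.00486 and 4.95e-30). The single fit over 36 libraries made neither the call under deprivation in wt cells (edgeR adjusted p = 0.0554) nor that under carbo in cis cells, which DESeq2 did not make either.

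CDC6, which loads the MCM ring together with CDT1, was at 120.0, 123 and 119 CPM in untreated, 57.9, 54.2 and 55.8 CPM in carbo and 81.5, 81.5 and 83.8 CPM in -SG wt cells. In cis cells the values were 142, 147 and 155 CPM, 146, 139 and 144 CPM and 78.1, 77.2 and 77 CPM. In cis cells the untreated and carbo libraries overlapped and the -SG libraries lay below both. The change of CDC6 under carbo in cis cells was -0.04 ± 0.034 (edgeR adjusted p = 0.473), against -0.87 ± 0.0362 under deprivation (edgeR adjusted p = 7.42e-26).

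CDT1 fell under carbo and was not called under deprivation in wt cells. It was at 66, 71.9 and 70.0 CPM untreated, 29.2, 31.5 and 30.1 CPM under carbo and 67.4, 75.4 and 76 CPM under deprivation. Its -SG libraries overlapped the untreated ones, and its carbo libraries lay below both. In wt cells it changed by -1.19 ± 0.0449 under carbo (edgeR adjusted p = 2.9e-111) and by 0.07 ± 0.0472 under deprivation (edgeR adjusted p = 0.226). The cis libraries were at 80.6 ± 5.27 CPM untreated, 71.1 ± 4.75 CPM under carbo and 58.6 ± 2.52 CPM under deprivation, with a log2 change of -0.40 under deprivation. Its inhibitor GMNN was at 52.4 ± 1.61, 22.3 ± 0.918 and 34.7 ± 0.973 CPM in untreated, carbo and -SG wt cells and at 44.5 ± 1.43, 39.8 ± 1.88 and 19.4 ± 0.928 CPM in cis cells. The calls of CDT1 and GMNN under carbo in cis cells were not made by DESeq2.

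Of the other subunits of the origin recognition complex, ORC6 fell under carbo in wt cells (log2 change of -1.08) and was not called under deprivation there (-0.02). ORC2 and ORC4 changed by -0.41 and -0.46 under carbo in wt cells and by -0.21 and -0.37 under deprivation in cis cells, all called by edgeR. The call of ORC2 in wt -SG cells (-0.09) was lost under several alternatives. ORC5 was not called in any of the comparisons of a treatment with untreated wt or cis cells.

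All 6 genes of the MCM ring fell under carbo in wt cells (median -1.39), under deprivation in wt cells (median -0.35) and under carbo in cis cells (median -0.21). Under deprivation in cis cells 5 fell and MCM5 rose (median -0.35). MCM2 (ENSG00000073111, plus strand, chr3:127317253-127341279 in GRCh37) was at 288, 288 and 287 CPM in untreated, 95, 99.4 and 93.4 CPM in carbo and 233, 233 and 227 CPM in -SG wt cells. Among cis libraries the level was 302, 292 and 291 CPM, 236, 237 and 245 CPM and 226, 225 and 235 CPM. The conditions did not overlap in wt cells, while the carbo and -SG libraries of cis cells lay close together below the untreated ones. Its log2 change under carbo was -1.58 ± 0.0258 in wt and -0.29 ± 0.0282 in cis cells (edgeR adjusted p = 5.9e-304 and 9.02e-09), a difference between lines of 1.30 ± 0.0382.

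MCM5 (ENSG00000100297, plus strand, chr22:35796127-35821424 in GRCh37) was the ring gene that parted from the other five. It was at 156, 158 and 160.0 CPM in untreated, 106, 113 and 111 CPM in carbo and 129, 133 and 125 CPM in -SG wt cells. The corresponding cis libraries were at 150.0, 161 and 153 CPM untreated, 134, 131 and 138 CPM under carbo and 177, 172 and 184 CPM under deprivation. In cis cells the carbo libraries lay below and the -SG libraries above the untreated ones, with no overlap. The log2 change in cis cells was -0.19 ± 0.0333 under carbo and 0.26 ± 0.0329 under deprivation (edgeR adjusted p = 8.1e-05 and 1.9e-09). In cis -SG carbo cells it was at 150.0 ± 8.01 CPM and was not called against untreated cells (-0.01).

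The ring genes MCM3, MCM4 and MCM6 changed by between -1.52 and -1.28 on the log2 scale under carbo in wt cells, and MCM7 by -0.97. Under deprivation in cis cells MCM3, MCM4 and MCM6 changed by -0.41, -0.45 and -0.40, and MCM7 by -0.09. MCM7 shares exon sequence with AP4M1 on the other strand and with MIR93, and the strand setting of the counting is not given in the sources used here. Of the 54 genes, 23 have an exon that overlaps another gene on either strand.

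Of the 10 helicase activation genes, 9 fell under carbo (median -1.14) and all 10 under deprivation (median -0.57) in wt cells. In cis cells 3 fell under carbo (median -0.08) and all 10 under deprivation (median -0.88), the largest median of the role groups in that comparison. CDC45, a part of the active helicase, was at 53.7, 54.4 and 52.2 CPM in untreated, 19.6, 20.2 and 18.4 CPM in carbo and 41.3, 39.6 and 40.6 CPM in -SG wt cells. Levels in cis cells were 67.1, 68.1 and 72.3 CPM, 68.7, 63.3 and 66 CPM and 31.3, 33.3 and 32.3 CPM. Carbo and untreated libraries overlapped in cis cells, and the -SG libraries were all lower. The log2 change of CDC45 was -1.46 ± 0.0528 under carbo in wt cells and -1.04 ± 0.0478 under deprivation in cis cells (edgeR adjusted p = 1.63e-117 and 4.34e-24).

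GINS2, a subunit of the helicase, fell under both treatments in both lines. It was at 56.6, 54.2 and 55.4 CPM in untreated, 19.6, 22.1 and 21.3 CPM in carbo and 34.5, 35.7 and 36 CPM in -SG wt cells. In cis cells it was at 41.3, 43.2 and 48.6 CPM, 34, 32.7 and 37.2 CPM and 28.1, 27.5 and 25.5 CPM. The conditions did not overlap in either line. GINS1 fell by at least 1 on the log2 scale under carbo in wt cells (-1.44) and under deprivation in cis cells (-1.12). GINS4 changed by -1.09 in cis -SG, -0.50 in wt -SG and -0.44 in wt carbo cells.

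MCM10, which takes part in starting the helicase, was at 72 ± 2.37, 34.9 ± 1.74 and 46.3 ± 2.02 CPM in untreated, carbo and -SG wt cells and at 97.2 ± 3.24, 87.2 ± 2.58 and 56.3 ± 0.5 CPM in cis cells. The kinase gene CDC7 was at 69.3 ± 0.854, 29.3 ± 0.489 and 57.2 ± 1.51 CPM in wt and at 36.6 ± 0.738, 33.4 ± 2.44 and 23.2 ± 0.47 CPM in cis cells. Its partner DBF4 changed by -1.38 under carbo in wt cells and by -1.06 under deprivation in cis cells. TICRR, a factor of origin firing, was at 62.4, 63.5 and 64.6 CPM in untreated, 59.9, 66.2 and 57.6 CPM in carbo and 28.1, 28.5 and 29 CPM in -SG cis cells. The -SG libraries of TICRR lay below all others of untreated and carbo cis cells (log2 change of -1.09 ± 0.0483, edgeR adjusted p = 8.82e-25).

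CCNE2, a cyclin E gene that drives entry into S phase, was called under deprivation and not under carbo in both lines. It was at 4.16, 4.52 and 5.24 CPM in untreated, 4.81, 4.82 and 4.69 CPM in carbo and 2.22, 2.81 and 2.51 CPM in -SG wt cells. The cis libraries were at 20, 20.7 and 20.9 CPM, 20.2, 20.7 and 19.4 CPM and 16, 15.1 and 14.8 CPM. In both lines the untreated and carbo libraries overlapped and the -SG libraries lay below them. The log2 change under deprivation was -0.89 ± 0.155 in wt and -0.37 ± 0.0708 in cis cells (edgeR adjusted p = 7.32e-05 and 1.12e-05), and under carbo it was 0.04 ± 0.134 and -0.02 ± 0.0671 (edgeR adjusted p = 0.767 and 0.863).

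All 9 genes of the polymerases and primase fell under carbo in wt cells (median -1.19), and 8 fell under deprivation (median -0.30), with POLE not called. In cis cells 5 fell under carbo (median -0.13) and all 9 under deprivation (median -0.56). POLE2 (ENSG00000100479, minus strand, chr14:50110273-50155140 in GRCh37) was at 34.2, 34.5 and 34.1 CPM in untreated, 11.2, 8.78 and 10.6 CPM in carbo and 26.9, 26 and 28.5 CPM in -SG wt cells. Among cis libraries the level was 29, 28.7 and 30.1 CPM, 27.6, 24.9 and 27 CPM and 15.3, 14.5 and 14.3 CPM. The wt conditions did not overlap, and in cis cells the -SG libraries lay well below the others. The response of POLE2 to carbo differed between the lines by 1.62 ± 0.0937 (edgeR adjusted p = 1.08e-22), the largest difference among the 54 genes.

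POLA1, the catalytic subunit that extends the primer, was at 80.6 ± 1.79, 35 ± 1.22 and 65.1 ± 4.75 CPM in untreated, carbo and -SG wt cells. The corresponding cis libraries were at 80.1 ± 4.78, 71 ± 1.53 and 66.9 ± 0.523 CPM, and its carbo and -SG levels were not told apart by edgeR (-0.03 ± 0.0379, adjusted p = 0.536). POLD3, a subunit of the lagging-strand polymerase, was at 71.4 ± 1.69, 28.4 ± 0.814 and 51.1 ± 0.406 CPM in wt and at 39 ± 1.77, 37.6 ± 3.08 and 29 ± 0.743 CPM in cis cells. PRIM1 was at 33.7 ± 2.12, 9.97 ± 0.521 and 26.9 ± 0.858 CPM in wt and at 48.5 ± 2.26, 40.4 ± 0.668 and 25.2 ± 1.07 CPM in cis cells. It shares exon sequence with NACA on its own strand, so its counts are less certain.

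Of the 9 genes of the clamp, its loader and Okazaki fragment processing, 8 fell and PCNA rose under carbo in wt cells (median -1.20), and 8 fell under deprivation (median -0.33). In cis cells 4 fell and PCNA rose under carbo (median -0.11), and all 9 fell under deprivation (median -0.74). PCNA (ENSG00000132646, minus strand, chr20:5095599-5107272 in GRCh37) was at 238, 230.0 and 222 CPM in untreated, 302, 306 and 295 CPM in carbo and 163, 164 and 165 CPM in -SG wt cells. Levels in cis cells were 393, 386 and 407 CPM, 448, 452 and 444 CPM and 250, 242 and 243 CPM. In both lines every carbo library lay above and every -SG library below the untreated ones. Its log2 change was 0.39 ± 0.022 and -0.48 ± 0.0295 in wt and 0.19 ± 0.026 and -0.63 ± 0.0285 in cis cells, under carbo and deprivation in turn (edgeR adjusted p = 1.06e-59, 4.01e-11, 2.66e-06 and 2.27e-24).

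RFC1, the large subunit of the clamp loader, was at 160.0, 159 and 157 CPM in untreated, 65.8, 61.7 and 66.2 CPM in carbo and 160.0, 161 and 150.0 CPM in -SG wt cells. In cis cells it was at 132, 126 and 137 CPM, 119, 117 and 120.0 CPM and 71.9, 73.3 and 68.7 CPM. In wt cells the -SG libraries overlapped the untreated ones, while in cis cells the -SG libraries were the lowest. Its response to deprivation differed between the lines by -0.80 ± 0.0489 (edgeR adjusted p = 1.34e-16). RFC3 was at 65.4 ± 1.88, 28.3 ± 0.781 and 50.4 ± 1.41 CPM in wt and at 36.6 ± 1.75, 35.8 ± 0.752 and 32 ± 0.756 CPM in cis cells, where its drop under deprivation (-0.14) was called by edgeR but lost under several alternatives.

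FEN1, the flap nuclease, had drops of close size under carbo and deprivation in wt cells. It was at 116, 121 and 116 CPM untreated, 68.7, 63.6 and 64.7 CPM under carbo and 67, 65.4 and 69.7 CPM under deprivation. The carbo and -SG libraries overlapped, with a difference of 0.03 ± 0.0425 (edgeR adjusted p = 0.601). The cis libraries were at 121 ± 1.62, 111 ± 0.542 and 62.7 ± 0.683 CPM. FEN1 shares exon sequence with FADS2 on its own strand.

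LIG1, the DNA ligase of the lagging strand, was at 81.6 ± 4.34, 52.9 ± 3.27 and 66.6 ± 3.57 CPM in wt and at 80.3 ± 1.08, 75.7 ± 3.39 and 46.2 ± 1.4 CPM in cis cells. RNASEH2A was at 68.6, 67.2 and 66.8 CPM in untreated, 22.9, 23.2 and 22 CPM in carbo and 54.2, 54.3 and 52.1 CPM in -SG wt cells. Among cis libraries the level was 70.8, 71.5 and 73.8 CPM, 71, 67.1 and 67.5 CPM and 31.7, 31 and 31.8 CPM. In wt cells carbo, and in cis cells deprivation, gave its lowest libraries, and in cis cells untreated and carbo libraries overlapped.

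The 3 genes of RPA, which coats single-stranded DNA, fell under carbo (median -0.57) and deprivation (median -0.33) in wt cells. In cis cells none of the 3 was called under carbo by edgeR, by DESeq2 or at an unadjusted p under 0.05 (median -0.04), and all 3 fell under deprivation (median -0.47). RPA3 was at 38.1 ± 1.84, 14.6 ± 1.16 and 30.1 ± 0.932 CPM in wt and at 24.9 ± 0.296, 24.2 ± 0.789 and 17.3 ± 0.521 CPM in cis cells. RPA1 and RPA2 had smaller drops than RPA3 under carbo in wt cells (-0.57 and -0.34, against -1.37).

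The 4 fork protection genes all fell under both treatments in wt cells (median -1.12 under carbo and -0.38 under deprivation). In cis cells 3 fell under carbo (median -0.13) and 2 under deprivation (median -0.49). CLSPN was at 62, 66.9 and 66.5 CPM in untreated, 29.7, 29.2 and 29.9 CPM in carbo and 33.9, 35.9 and 35.5 CPM in -SG wt cells. The corresponding cis libraries were at 86, 88.5 and 83.4 CPM, 75.1, 79.8 and 79 CPM and 42.1, 41.7 and 39.3 CPM. The conditions did not overlap in either line, and the cis -SG libraries were far below both others. WDHD1, a factor that ties the helicase to the polymerase, changed by -1.25 under carbo in wt cells and by -1.01 under deprivation in cis cells.

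TIMELESS and TIPIN, which form a complex at the fork, were the 2 fork genes not called in cis -SG cells. TIMELESS (ENSG00000111602, minus strand, chr12:56810147-56843210 in GRCh37) was at 217, 226 and 220.0 CPM in untreated, 102, 104 and 98.7 CPM in carbo and 206, 207 and 195 CPM in -SG wt cells. Levels in cis cells were 81.9, 86.5 and 86.3 CPM, 81.2, 72.7 and 78.5 CPM and 81.4, 85 and 81.8 CPM. In cis cells the untreated and -SG libraries overlapped, the carbo libraries lay just below them, and all 3 conditions lay below the lowest wt carbo library. The change of TIMELESS in cis -SG cells was 0.02 ± 0.0383 (edgeR adjusted p = 0.611), against -0.13 ± 0.0291 in wt -SG cells (edgeR adjusted p = 0.00122, and 0.295 in the single fit over 36 libraries). TIPIN was at 26.5 ± 1.92, 15.3 ± 0.678 and 19.1 ± 1.42 CPM in wt and at 26.9 ± 2.29, 26.1 ± 0.915 and 27.3 ± 0.621 CPM in cis cells.

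The 4 genes of chromatin copying and others fell under both treatments in wt cells (median -1.03 under carbo and -0.35 under deprivation). In cis cells 3 fell under carbo (median -0.12) and all 4 under deprivation (median -0.43). DNMT1, which copies DNA methylation onto the new strand, was at 409 ± 1.76, 213 ± 0.181 and 354 ± 10.6 CPM in wt and at 386 ± 6.13, 356 ± 11 and 315 ± 8.18 CPM in cis cells. CHAF1B, a subunit of the chromatin assembly factor, was at 47.3 ± 2.32, 21.5 ± 1.83 and 33.6 ± 1.17 CPM in wt and at 66.6 ± 1.53, 61.3 ± 1.42 and 33.9 ± 1.4 CPM in cis cells.

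FAM111B (ENSG00000189057, plus strand, chr11:58874658-58894885 in GRCh37) was at 9.47, 9.2 and 8.33 CPM in untreated, 4.22, 5.12 and 4.92 CPM in carbo and 2.42, 2.18 and 2.45 CPM in -SG wt cells. In cis cells it was at 29, 30.3 and 29 CPM, 24.5, 23.9 and 23.1 CPM and 23.3, 24.4 and 23.8 CPM. The wt conditions did not overlap, and deprivation gave the lowest libraries there. In cis cells the carbo and -SG libraries overlapped, below the untreated ones. The response to deprivation differed between the lines by 1.71 ± 0.136 (edgeR adjusted p = 1.78e-13).

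**Figure D4:**
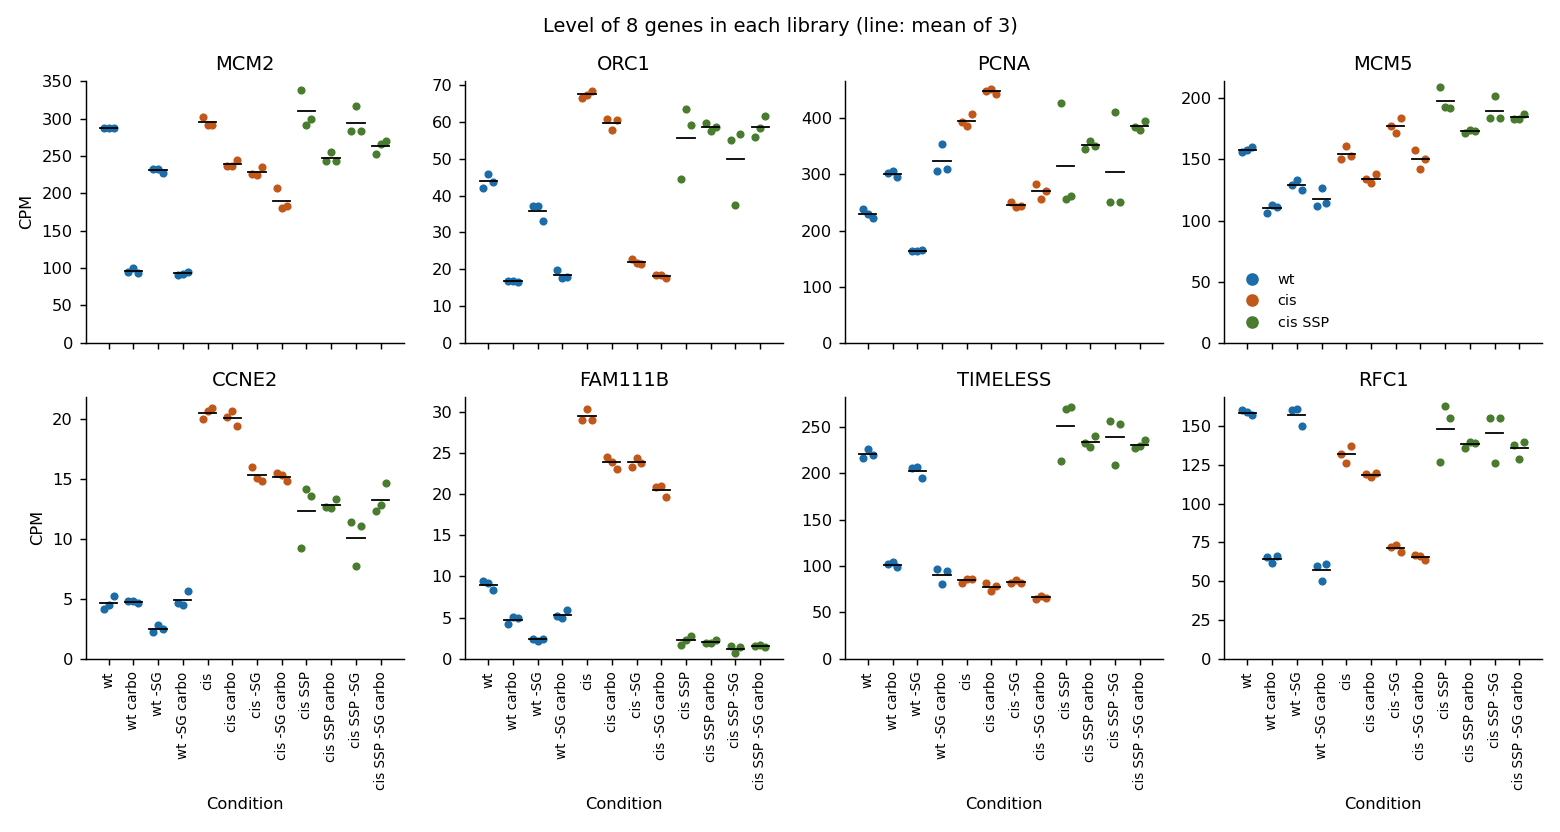
Level (CPM, vertical axis, from 0) of 8 of the genes in each library of the 12 conditions. Points are libraries and lines are means of 3, coloured by line: PCNA is higher under carbo and lower under -SG in wt and cis cells, MCM5 rises in cis -SG cells, and FAM111B is between 0.736 and 2.79 CPM in cis SSP cells.

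With both treatments, 51 of the 54 genes fell and PCNA rose in wt cells, with a median change of -1.27 (edgeR; 33.9% of all genes lower and 33.8% higher). PRIM1 (-1.83), POLE2 (-1.70) and PRIM2 (-1.66) fell most, and PCNA changed by 0.49. In cis cells 51 fell under both treatments and 3 were not called, with a median change of -0.74 (edgeR; 37% lower and 36.6% higher). ORC1 (-1.86), GINS1 (-1.52) and GMNN (-1.30) fell most, and ORC3, ORC5 and MCM5 were not called. Without the 2 libraries that had many counts outside features, which leaves 1 library assumed to vary like the others, 50 fell (median -0.67; 32.8% of all genes lower and 31.7% higher), again led by ORC1 (-1.82), GINS1 (-1.53) and GMNN (-1.31). TIPIN, called by edgeR at -0.20, lost its call under several alternatives. PCNA was at 306, 355 and 310.0 CPM in wt -SG carbo and at 283, 257 and 270.0 CPM in cis -SG carbo cells, above all untreated libraries in wt and below them in cis cells. The value of 355 CPM is that of the second wt -SG carbo library, which had a trend with length.

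Whether the changes added up was tested as the interaction of carbo and deprivation within a line. A value above 0 means that the log2 change under both lay above the sum of the separate changes. In wt cells 31 genes had an interaction above 0 and 23 were not called, with a median of 0.32 (edgeR; 14.6% of all genes above 0 and 13.1% below). FAM111B (2.10 ± 0.175), CCNE2 (0.93 ± 0.2) and GINS3 (0.87 ± 0.098) had the largest values. Of these, FAM111B and CCNE2 had low levels, with means of 2.35 and 2.51 CPM in wt -SG cells. The calls of CDC7, POLE2 and LIG1 in this comparison were lost under several alternatives. In cis cells 8 genes had an interaction below 0 and 46 were not called, with a median of -0.07 (edgeR; 6.17% of all genes below 0 and 5.91% above). The most negative were GINS3 (-0.38 ± 0.089), ORC6 (-0.28 ± 0.0652) and CDC6 (-0.25 ± 0.0525), and the number of calls ran from 5 to 23 when single libraries were left out (23 without the first cis -SG carbo library). Without the 2 libraries that had many counts outside features, 6 were below 0 and MCM2 (0.15) above (4.95% and 3.77% of all genes), still led by GINS3 (-0.36), ORC6 (-0.29) and CDC6 (-0.25), while the single edgeR fit over 36 libraries called none of the 8 and DESeq2 called 7 genes.

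**Figure D5:**
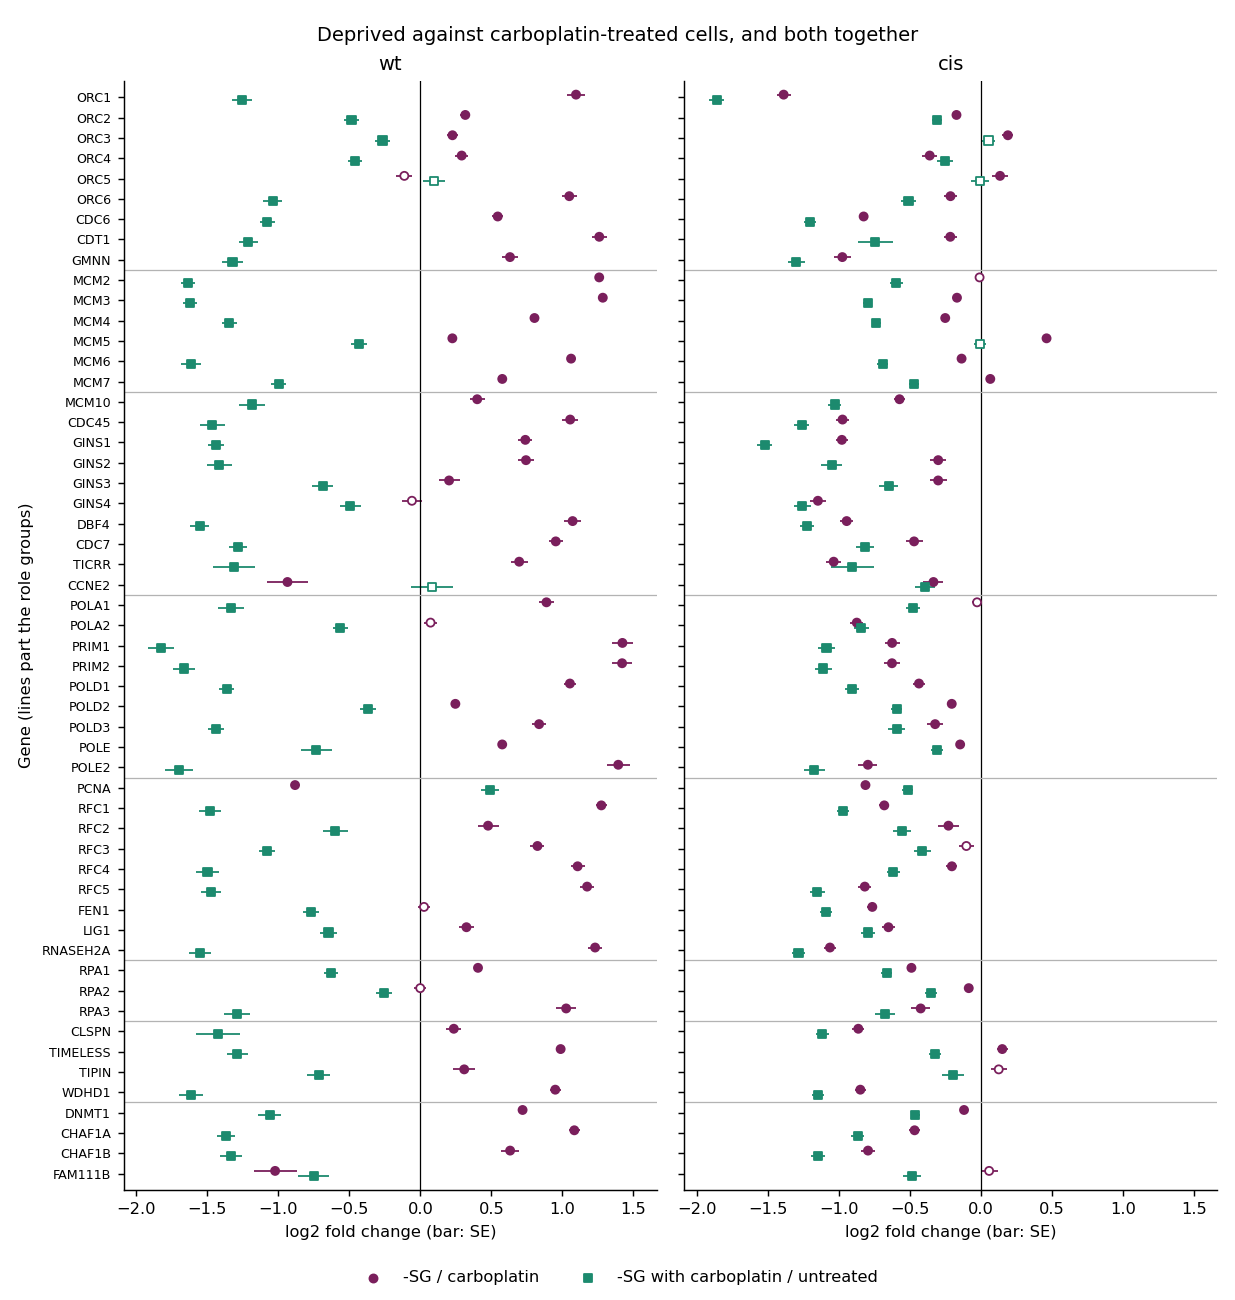
Log2 difference between -SG and carbo libraries (circles) and log2 change under both treatments against untreated cells (squares) for the 54 genes in wt (left) and cis cells (right). Bars are SE and open symbols are genes not called by edgeR: most circles lie right of 0 in wt cells (median 0.73) and left of 0 in cis cells (median -0.39), while the squares lie left of 0 in both.

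In cis SSP cells edgeR called none of the 54 genes under carbo (median -0.10; 0.749% of all genes lower and 1.97% higher). At an unadjusted p under 0.05 there were 7, and DESeq2 called 2. Without the first untreated cis SSP library, edgeR called 23 lower and 7 higher (median -0.09; 19.2% and 21.9% of all genes). GINS2 (-0.35), MCM3 (-0.35) and POLE2 (-0.34) then fell most. The 7 that rose were PCNA (0.46), POLA2 (0.27), GINS4 (0.27), ORC5 (0.19), RFC3 (0.17), ORC3 (0.15) and RPA2 (0.09).

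Under deprivation edgeR and DESeq2 called none of the 54 genes in cis SSP cells, and none had an unadjusted p under 0.05 (median -0.07; 0.0% of all genes lower and 0.0218% higher). Without the 2 libraries that stood apart, which leaves 2 libraries in each condition, edgeR called 20 lower and 6 higher (median -0.07; 17% and 18.9% of all genes). FAM111B (-0.77 ± 0.249), POLD1 (-0.33 ± 0.0431) and CLSPN (-0.30 ± 0.046) then fell most. POLA1 (0.26), ORC3 (0.19), RPA2 (0.11), MCM7 (0.10), MCM6 (0.10) and RPA1 (0.08) rose.

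Between cis SSP -SG and cis SSP carbo cells edgeR called 1 gene, MCM6, which was higher under deprivation (0.45 ± 0.0837, adjusted p = 0.0412; 2.64% of all genes lower and 1.6% higher). MCM6 was at 283, 266 and 268 CPM in untreated, 206, 211 and 207 CPM in carbo and 281, 297 and 285 CPM in -SG cis SSP cells. Its -SG and carbo libraries did not overlap. Without the second -SG library 12 genes were lower and 14 higher, close to the shares of all genes (25.3% and 25.5%). PCNA (-0.50), GINS4 (-0.41) and POLA2 (-0.36) led those lower. POLA1 (0.57), MCM6 (0.44) and MCM3 (0.33) led those higher.

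Under both treatments edgeR and DESeq2 called none of the 54 genes in cis SSP cells, and 4 had an unadjusted p under 0.05 (median -0.07; 0.537% of all genes lower and 1.5% higher). Without the first untreated library 16 were lower and 12 higher in edgeR (17.5% and 20.9% of all genes). The largest drops were then those of FAM111B (-0.71), POLE2 (-0.36) and MCM6 (-0.27), and the largest rises those of PCNA (0.60), ORC6 (0.25) and POLA2 (0.24). The interaction of carbo and deprivation was not called for any member by edgeR (0.0281% of all genes below 0 and 0.0% above), with 2 at an unadjusted p under 0.05 and 1 called by DESeq2. Without both libraries that stood apart 18 were above 0 and 1, ORC3, below (5.72% and 9.29% of all genes).

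The responses of cis SSP and cis cells were compared in the same way. Because cis SSP cells had arisen without serine and glycine, the line and its earlier growth in such medium cannot be told apart here. For deprivation 21 genes had a higher log2 change in cis SSP than in cis cells and 33 were not called, with a median difference of 0.52 (edgeR; 6.86% of all genes higher and 10.3% lower). ORC1 (1.42 ± 0.236), WDHD1 (1.01 ± 0.213) and CDC45 (1.0 ± 0.24) led them. Without the 2 libraries that stood apart, 45 genes were higher and MCM5 lower, led by ORC1 (1.44), TICRR (1.06) and CDC45 (1.05), with a median of 0.49 (28.8% and 26.6% of all genes). For carbo edgeR and DESeq2 called none, with 2 at an unadjusted p under 0.05 (0.0832% of all genes lower and 0.423% higher), and without the first untreated cis SSP library PCNA (0.28), POLA2 (0.28), GINS4 (0.20) and MCM7 (0.15) were higher and none lower (9.38% and 4.89% of all genes). ORC1 was at 44.6, 63.6 and 59.3 CPM in untreated, 59.8, 57.5 and 58.6 CPM in carbo and 55.2, 37.6 and 56.8 CPM in -SG cis SSP cells. The untreated and -SG libraries of ORC1 overlapped widely, and each was lowest in the library that stood apart.

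Before treatment cis and wt cells differed in 44 of the 54 genes, with 22 lower and 22 higher in cis cells and a median difference of -0.01 (edgeR; 39.1% of all genes lower and 39.4% higher), shares close to those of all genes. CCNE2 (2.12 ± 0.0937), FAM111B (1.69 ± 0.0735) and PCNA (0.76 ± 0.0257) were higher in cis cells by the most. TIMELESS (-1.40 ± 0.0305), CDC7 (-0.94 ± 0.0435) and POLD3 (-0.89 ± 0.044) were lower by the most. Of the MCM ring, 4 genes were lower and 2 not called, with a median of -0.09.

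Between untreated cis SSP and cis cells 4 genes were lower and 4 higher, and 46 were not called (edgeR; 13.3% of all genes lower and 15.8% higher). FAM111B (-3.71 ± 0.202), CCNE2 (-0.74 ± 0.188), DBF4 (-0.68 ± 0.0925) and CHAF1B (-0.36 ± 0.107) were lower. TIMELESS (1.55 ± 0.143), LIG1 (0.66 ± 0.104), POLD1 (0.43 ± 0.104) and MCM5 (0.33 ± 0.0916) were higher. FAM111B was at 1.61, 2.29 and 2.79 CPM and TIMELESS at 213, 269 and 272 CPM in untreated cis SSP cells, and neither overlapped the untreated cis libraries. Without the first cis SSP library 17 genes were lower and 12 higher (32.5% and 32.9% of all genes). FAM111B (-3.51), DBF4 (-0.66) and PCNA (-0.60) were then lowest, and TIMELESS (1.68), LIG1 (0.59) and GINS2 (0.39) highest.

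Other genes of DNA replication that are not among the 54, from a list of 35, were counted in the same way. In wt cells 28 fell and 4 rose under carbo (edgeR, median -0.80), and 25 fell under deprivation (median -0.29). In cis cells 9 fell and 3 rose under carbo (median -0.07), and 30 fell and 2 rose under deprivation (median -0.50). Of 10 genes of deoxynucleotide supply, 9 fell and 1 rose under carbo (median -1.08) and 8 fell under deprivation (median -0.39) in wt cells. In cis cells 6 fell and 2 rose under carbo (median -0.15), and 8 fell and 1 rose under deprivation (median -0.52). All 26 genes of a G2/M list fell under carbo in wt cells (median -2.02) and under deprivation in cis cells (median -1.33). For that list, 24 genes fell under deprivation in wt cells (median -0.29) and 18 under carbo in cis cells (median -0.16). The median of all genes tested lay between -0.00 and 0.01 in these 4 comparisons. Of all genes tested, 39.0% were lower and 38.9% higher for wt carbo, and 25.1% and 24.1% for wt -SG. For cis carbo the shares were 10.8% and 9.27%, and for cis -SG they were 37.4% and 37.6%.

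Of 11414 genes outside the list with a mean of at least 50 counts, the 5 whose 12 condition means followed the mean pattern of the 54 genes most closely were PARP1, SPC25, TACC3, KIF4A and CNOT9. Their Pearson r was 0.992, 0.989, 0.988, 0.986 and 0.985, a description over 12 conditions whose libraries share depth and scaling.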

How the data were processed

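The authors deposited a table of raw read counts per gene for the 36 libraries. Per the submitters' processing notes and the study's methods, reads were aligned to GRCh37 with STAR and counted with HTSeq. The strand setting of the counting is not given in the sources used here. The 3 entries that name no gene were left out of library sizes and tests, and counts outside features were 4.21% to 17.9% of a library. The columns were matched to samples by name.

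Each comparison was fitted on the deposited counts of its own conditions with edgeR 4.0.16 in R 4.3.3 (quasi-likelihood test, TMM scaling, filterByExpr, Benjamini-Hochberg adjustment over all genes tested, called at an adjusted p under 0.05). Differences between lines or treatments in response were interaction contrasts. CPM values were scaled by TMM over the 36 libraries. Alternatives were DESeq2 1.42.0, other scalings and filters, removal of a trend with gene length, a single fit over all libraries and leaving out libraries. The procedure was tested on simulated data with 200 genes changed and the same spread for all genes. That setting does not cover the larger numbers of genes called here or the libraries that stood apart. Tables, promoters and figures were made with Python 3.11.15, pandas 2.3.3, numpy 2.4.6 and matplotlib 3.10.9.

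The genes, the comparison lists and the tests were chosen with earlier results of these data known. Library values or their mean and SD were given for up to 5 genes of each role set in the design, and for PRIM1 and MCM6. Each comparison named up to 3 called genes with the largest change in each direction. Every called gene against the majority direction was named too (where more than 10, the count and the 3 largest). The 5 genes outside the list closest in pattern were also named. Gene positions are those of GRCh37. UHRF1 is not analysed here.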

Additional observations from a re-analysis of the deposited data

Results flagged for a closer look

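The response to carbo differed between cis and wt cells by the interaction test of edgeR in 52 of the 54 genes, with the largest differences in POLE2 (1.62), RNASEH2A (1.51) and PRIM1 (1.51) on the log2 scale. The response to deprivation differed between cis and wt cells in 41 genes, with FAM111B (1.71), ORC1 (-1.26) and RFC1 (-0.80) the largest. The response to deprivation differed between cis SSP and cis cells in 21 genes, with ORC1 (1.42), WDHD1 (1.01) and CDC45 (1.0) the largest. Of all genes, 27.2% were lower and 30.3% higher in the first of these tests. In the next the shares were 26.9% and 27.1%, and in the last 10.3% and 6.86%. All 3 tests compare 3 libraries per condition, and the last rests in part on the 2 cis SSP libraries that stood apart.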

How the results depend on the processing

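No paired analysis was possible because the labels give no replicate numbers shared across conditions. The median log2 change kept its sign under the alternatives run, with exceptions near 0 in cis against wt (-0.04 to 0.03), cis SSP -SG against carbo (-0.01 to 0.06), cis SSP against cis (-0.07 to 0.06) and the response to carbo in cis SSP minus cis (-0.04 to 0.03). Values moved as follows. With total counts as scaling the median was -1.20 for wt carbo, -1.33 for wt -SG carbo and 0.78 for wt -SG against carbo, -0.47 for cis -SG, -0.65 for cis -SG carbo and -0.36 for cis -SG against carbo, and 1.08 for the response to carbo in cis minus wt cells. Without a filter it was -1.16 for wt carbo, 0.75 for wt -SG against carbo, -0.78 for cis -SG carbo and -0.37 for cis -SG against carbo. With at least 10 counts in every library it was -0.48 for cis -SG, -0.67 for cis -SG carbo and -0.36 for cis -SG against carbo. With the length trend removed it was -0.31 for wt -SG, 0.66 for wt -SG against carbo and -0.69 for cis -SG carbo. DESeq2 gave -0.78 for cis -SG carbo. The single fit over 36 libraries gave -0.56 for cis -SG, -0.78 for cis -SG carbo, -0.45 for cis -SG against carbo and -0.25 for the response to -SG in cis minus wt cells. Without replicates 2 and 3 of cis -SG carbo cells the median was -0.67 for cis -SG carbo.

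The number of genes called moved more. DESeq2 called 14 for cis carbo, 2 for cis SSP carbo, 3 for cis SSP -SG against carbo and 1 for the interaction in cis SSP. The single fit called 35 for wt -SG, 39 for cis -SG against carbo, 30 for the response to -SG in cis minus wt, 5 for cis carbo, 16 for cis SSP carbo, 8 for cis SSP -SG, 18 for cis SSP -SG carbo, 13 for cis SSP -SG against carbo, 28 for cis against wt, 21 for cis SSP against cis, 35 for the response to -SG in cis SSP minus cis, and 19, 0 and 1 for the interactions in wt, cis and cis SSP. With the length trend removed there were 1 for cis SSP carbo, 2 for cis SSP -SG carbo, 4 for cis SSP -SG against carbo and 13 for cis SSP against cis. Without a filter there were 0 for cis SSP -SG against carbo and 5 for the interaction in cis, and with total counts 4 for the latter. Without the 2 cis SSP libraries that stood apart there were 26 for cis SSP -SG, 46 for the response to -SG in cis SSP minus cis and 19 for the interaction in cis SSP. The cause was not tested.

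Leaving out 1 library at a time gave medians of -1.17 to -1.12 for wt carbo, -0.33 to -0.30 for wt -SG, -1.29 to -1.21 for wt -SG carbo, 0.70 to 0.77 for wt -SG against carbo, -0.78 to -0.70 for cis -SG carbo, -0.41 to -0.37 for cis -SG against carbo, -0.04 to 0.03 for cis against wt (above 0 without the second cis library) and -0.15 to -0.06 for the interaction in cis. The counts ran from 17 to 24 for cis carbo, 0 to 30 for cis SSP carbo, 0 to 28 for cis SSP -SG carbo, 0 to 26 for cis SSP -SG against carbo, 4 to 29 for cis SSP against cis, 0 to 4 for the response to carbo in cis SSP minus cis and 5 to 23 for the interaction in cis. The fit with 1 library in a condition assumes that it varies like the others. Total-count scaling moved the median of all genes by -0.108 for the response to -SG in cis SSP minus cis, where the median of the 54 genes was then 0.41, or 0.51 above that of all genes. Of all genes, with TMM and then with total counts, 913 and 678 were lower and 874 and 1131 higher for the interaction in cis, 1518 and 1918 lower and 1015 and 768 higher for the response to -SG in cis SSP minus cis, 104 and 148 lower and 273 and 225 higher for cis SSP carbo, 73 and 138 lower and 204 and 161 higher for cis SSP -SG carbo, and 12 and 12 lower and 61 and 33 higher for the response to carbo in cis SSP minus cis.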
